A study of Mus musculus with 6 samples.

Results

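Fatty acid oxidation and its transcriptional control by the PGC-1 coactivators were followed through 9 genes, named by symbol: the coactivators *Ppargc1a* and *Ppargc1b*, the nuclear receptors *Ppara* and *Ppard*, the carnitine palmitoyltransferases *Cpt1a* and *Cpt2*, the peroxisomal oxidase *Acox2*, and the acyl-CoA thioesterases *Acot1* and *Acot2*. All 9 were among the 26264 genes measured and among the 17404 that were abundant enough to be tested. The study asked how the transcription factor IRF1 acts in hematopoietic stem cells (HSCs), and bulk RNA-seq compared HSCs of 3 wild-type (WT) and 3 *Irf1-/-* mice. All mice were untreated, 8-week-old females, WT of the C57BL/6 strain and *Irf1-/-* of the line B6.129S2-Irf1 tm1Mak/J, called IRF1 KO in the labels. The deletion is present in the whole body, so the cells around the HSCs carried the targeted allele as well as the HSCs themselves. HSCs were sorted from bone marrow with the study's HSC gate (negative for lineage markers and CD48, positive for Sca1, c-Kit, and CD150), and total RNA was amplified into cDNA in 1 library per mouse. Libraries are named by the replicate numbers 2, 3, and 4. Reads on genes numbered 43138521, 57281017, and 45129929 in the *Irf1-/-* libraries and 59658080, 45332573, and 43267486 in the WT libraries, in the order of replicates 2, 3, and 4, which is the order of all values below.

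Cells burn fatty acids in mitochondria and, for very long and branched chains and bile acid precursors, in peroxisomes. Long chains enter mitochondria by the carnitine shuttle, whose first enzyme, a carnitine palmitoyltransferase 1, sets the pace of the pathway. PPAR receptors switch on many genes of the pathway when fatty acids bind them, and the PGC-1 proteins are coactivators that bind these and other receptors and raise the output of mitochondrial genes. In the bone marrow, HSCs are mostly quiescent and rely little on mitochondrial respiration, and fatty acid oxidation downstream of PML and PPARδ has been tied to the maintenance of their asymmetric division.

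The targeted gene was examined first. *Irf1* had normalized counts, that is, reads divided by 1 size factor per library, of 9267, 9524, and 9287 in *Irf1-/-* HSCs and 10122, 11120, and 12057 in WT HSCs. Each *Irf1-/-* library had fewer than each WT library, in the direction of the labels, but reads were still counted on the gene, and the difference did not pass the test (log2 fold change −0.24, SE 0.088, adjusted *P* = 0.170, limma). Here and below, fold changes are *Irf1-/-* over WT on the scale of log2(normalized count + 1), a scale on which changes of weakly expressed genes appear smaller than they are, and *P* values were adjusted over all 17404 genes. Calls required both an adjusted *P* under 0.05 and a log2 fold change beyond 0.58 in either direction. *P* values measure only the spread between these mice and their libraries.

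The sorted cells carried the markers of HSCs. *Kit*, the stem cell factor receptor, had a mean normalized count of 82378, and all 10 HSC markers were measured. *S100a8* and *S100a9*, which mark neutrophils, were at 1033 and 1246 in WT replicate 4, and *S100a8* was at most 110.0 and *S100a9* at most 131 in the other libraries. In the same list of 8 neutrophil and monocyte markers, *Ly6g* was also highest in WT replicate 4 (46.3). *Lyz2*, *Itgam*, *Csf1r*, *Elane*, and *Mpo* were highest in other libraries. The list summed to 30380 in WT replicate 4, compared with 31501 in WT replicate 3 and 33400 in *Irf1-/-* replicate 3. Most of each sum was *Lyz2* (25956, 29137, and 31462 in these libraries), so the sums say little on the less abundant markers. Because of *S100a8* and *S100a9*, results that rest on WT replicate 4 are given with and without it where it changed a call.

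Of the 9 genes, 2 were called higher in *Irf1-/-* HSCs, *Acox2* and *Acot1*, where 0.96% of all tested genes were called higher. None (0) was called lower by limma, where 0.954% of all tested genes were, and 0 were lower at an unadjusted *P* under 0.05 or called lower by edgeR or DESeq2. All *Irf1-/-* libraries lay above all WT libraries for 4 genes (*Ppargc1a*, *Cpt1a*, *Acox2*, and *Acot1*), compared with 10.6% of all tested genes. They lay below all WT libraries for 0 of the 9, compared with 9.27% of all tested genes. The median log2 fold change of the 9 was 0.41 and 7 were positive, beside a median of −0.0028 and 49.6% positive over all tested genes. An unadjusted *P* under 0.05 was found for 4 of the 9 and for 16.5% of all tested genes, and the counts of such genes in the lists below stand beside that share. The 9 genes were chosen with earlier results of these data known. Their values beside those of all tested genes are therefore a description and do not test the set.

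*Ppargc1a* encodes PGC-1α, the coactivator that is induced by cold, exercise, and fasting in other tissues. Its normalized counts were 416, 376, and 426 in *Irf1-/-* HSCs and 229, 151, and 287 in WT HSCs. The *Irf1-/-* libraries were close to each other and all higher than the WT libraries, among which replicate 3 was the lowest and replicate 4 the highest. The mean was 1.82-fold higher (406 ± 26.3 compared with 222 ± 68.3; SD, n = 3 each). The log2 fold change was 0.91 (SE 0.236, 95% interval 0.40 to 1.42), which exceeded the fold threshold, but the adjusted *P* of 0.0533 (limma) narrowly missed its own. *Ppargc1a* was therefore not called, although it was called with DESeq2 on the reads (adjusted *P* = 0.00506), when genes under a mean of 50 were left out (limma, adjusted *P* = 0.0413), and without WT replicate 4 (log2 fold change 1.12, limma adjusted *P* = 0.0162). It was not called with edgeR (adjusted *P* = 0.0685), and without WT replicate 3, the lowest library, its log2 fold change was 0.66 (limma, adjusted *P* = 0.191). Its adjusted *P* was above 0.05 in 12 of 16 alternative settings, among them each that left out an *Irf1-/-* library. Over all 16 it ranged from 0.00506 to 0.283. The paper, which used DESeq2 with the same thresholds, placed *Ppargc1a* among its up-regulated genes.

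*Ppargc1b* encodes PGC-1β, the paralog with a similar set of partner receptors. It had normalized counts of 830.4, 1104, and 749.5 in *Irf1-/-* HSCs and 871, 1148, and 1027 in WT HSCs. The genotypes overlapped, and replicate 3 was the highest library in both. The log2 fold change was −0.19 with a 95% interval from −0.54 to 0.15 (limma, adjusted *P* = 0.637), an interval that does not include the fold threshold in either direction. Single libraries moved this value, to −0.355 without *Irf1-/-* replicate 3 and to −0.08 without *Irf1-/-* replicate 4. Whether the coactivators differed in their response was not tested.

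The PPAR receptors were counted with few reads. *Ppara*, the receptor that drives fatty acid oxidation in liver, had normalized counts of 52.2, 28.5, and 45.7 in *Irf1-/-* HSCs and 31.3, 19.2, and 38.7 in WT HSCs, which rest on between 17 and 49 reads per library. *Ppard*, which encodes the PPARδ receptor, had 65.0, 46.7, and 29.1 in *Irf1-/-* HSCs and 51.8, 49.6, and 65.6 in WT HSCs, from 28 to 63 reads per library. The genotypes overlapped for both receptors. For *Ppara* the log2 fold change was 0.50 (95% interval −0.56 to 1.56; limma, adjusted *P* = 0.701), and for *Ppard* it was −0.30 (95% interval −1.23 to 0.62; limma, adjusted *P* = 0.811). Both intervals include 0 as well as changes beyond the fold threshold. With 1 library left out, the log2 fold change of *Ppara* ranged from 0.23 (without WT replicate 3) to 0.75 (without *Irf1-/-* replicate 3), and that of *Ppard* was −0.57 when *Irf1-/-* replicate 2 was omitted and −0.0042 when *Irf1-/-* replicate 4 was.

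The carnitine palmitoyltransferases were the most abundant of the 9 genes. *Cpt1a*, the form of carnitine palmitoyltransferase 1 found in liver and blood cells, had normalized counts of 17581, 18688, and 18981 in *Irf1-/-* HSCs and 12002, 15405, and 14384 in WT HSCs. The lowest *Irf1-/-* library exceeded the highest WT library, and WT replicate 2 was the lowest of all. The mean was 1.32-fold higher, 18416 ± 738 compared with 13931 ± 1746 (SD, n = 3 each). With a log2 fold change of 0.41 (SE 0.099, 95% interval 0.20 to 0.62; limma, adjusted *P* = 0.0384), *Cpt1a* passed the threshold on the adjusted *P* but not that on the fold change, and was not called. Its adjusted *P* was above 0.05 in 7 of the 16 alternative settings, among them each of the 3 that left out an *Irf1-/-* library and that without WT replicate 2 (log2 fold change 0.31, limma adjusted *P* = 0.219), and ranged from 0.00307 to 0.316 over all of them. *Cpt2*, the partner enzyme on the inner membrane, had 3563, 4104, and 3181 in *Irf1-/-* HSCs and 3264.5, 3291, and 3139 in WT HSCs. The ranges of the genotypes overlapped, and the log2 fold change of 0.15 did not pass the test (95% interval −0.07 to 0.38; limma, adjusted *P* = 0.527), with values from 0.06 to 0.24 when 1 library was left out. The muscle form *Cpt1b* was at or near 0 in all libraries, with a highest normalized count of 3.23.

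*Acox2* encodes the peroxisomal oxidase for branched-chain fatty acids and for the side chain of bile acid precursors. Its normalized counts were 241, 281, and 354 in *Irf1-/-* HSCs and 108, 107, and 158 in WT HSCs. The groups were well separated, and replicate 4 was the highest library in both genotypes. *Acox2* rose 2.35-fold in the mean (292 ± 57.3 compared with 124 ± 29.3; SD, n = 3 each), with a log2 fold change of 1.23 (SE 0.259, 95% interval 0.68 to 1.79; limma, adjusted *P* = 0.0192). This was the largest fold change among the 9 genes. The call was lost without *Irf1-/-* replicate 4 (log2 fold change 1.08, limma adjusted *P* = 0.128), without WT replicate 2 (1.14, adjusted *P* = 0.0583), without WT replicate 3 (1.14, adjusted *P* = 0.0739), and without the trend in the prior variance (adjusted *P* = 0.164). It held without WT replicate 4, where the log2 fold change was 1.42 (limma, adjusted *P* = 0.00942). Over the 16 alternatives the log2 fold change stayed between 1.08 and 1.42 and the adjusted *P* ranged from 0.000117 to 0.164.

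The other genes of peroxisomal oxidation give the surroundings of *Acox2*. Of 16 such genes, all tested, 0 were called in either direction by limma, edgeR, or DESeq2, 1 had an unadjusted *P* under 0.05 (beside 16.5% of all tested genes), and their median log2 fold change was 0.04. *Scp2* and *Hsd17b4*, which act later in the same pathway, had log2 fold changes of −0.02 and −0.05, and their genotypes overlapped. For the 16 genes of peroxisome biogenesis, which import the enzymes and divide the organelle, the median was 0.0019 with 0 called by these tools and 1 with an unadjusted *P* under 0.05. The most abundant of them, *Pex6*, *Pex5*, and *Pex19*, had log2 fold changes of 0.06, 0.12, and −0.10.

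*Acot1* and *Acot2* encode thioesterases that split long-chain acyl-CoA into free fatty acid and coenzyme A, *Acot1* in the cytosol and *Acot2* in mitochondria. *Acot1* had normalized counts of 803, 897, and 889 in *Irf1-/-* HSCs and 493, 511, and 588 in WT HSCs. All *Irf1-/-* libraries were higher than all WT libraries, and the spread within each genotype was small. *Acot1* rose 1.63-fold in the mean (863 ± 52.2 compared with 531 ± 50.8; SD, n = 3 each), with a log2 fold change of 0.70 (SE 0.142, 95% interval 0.40 to 1.01; limma, adjusted *P* = 0.0153). The call was lost without *Irf1-/-* replicate 4 (log2 fold change 0.68, limma adjusted *P* = 0.081), without WT replicate 2 (0.65, adjusted *P* = 0.0628), without WT replicate 3 (0.68, adjusted *P* = 0.059), and without the trend (adjusted *P* = 0.123). Over the 16 alternatives its adjusted *P* ranged from 9.02e-05 to 0.123, and its log2 fold change from 0.65 to 0.78.

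*Acot2* had normalized counts of 456, 280.0, and 478 in *Irf1-/-* HSCs and 333, 236, and 392 in WT HSCs. Replicate 3 was the lowest library in both genotypes and the groups overlapped, with a log2 fold change of 0.33 (95% interval −0.20 to 0.86; limma, adjusted *P* = 0.585). It was 0.12 without WT replicate 3 and 0.57 without *Irf1-/-* replicate 3. Replicate 3 was likewise the lowest library of both genotypes for *Ppargc1a* and *Ppara*. *Acot1* and *Acot2* are near-identical neighbors in a cluster of thioesterase genes (*Acot2*, *Acot1*, *Acot4*, *Acot3*, *Acot5*, and *Acot6* in the gene order of GRCm38.p6). Their coding sequences shared 95.5% of 1239 aligned bases. Of the 1465 different stretches of 100 bases in *Acot1* transcripts, 359 also occurred in *Acot2*, and 32.5% occurred in some other gene. For *Acot2* the share was 17.1%, and for the other 7 genes it was 0%. How reads that match both genes were counted is not given in the sources used here, so the values of *Acot1* and *Acot2* are uncertain to the extent that such reads were shared.

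Among the other members of that cluster, *Acot3*, *Acot4*, and *Acot6* were tested. Their log2 fold changes were −0.20, 0.16, and 0.34 (limma, adjusted *P* = 0.891, 0.859, and 0.740), and their genotypes overlapped. *Acot5* was below the limit for testing, with normalized counts of 3.20, 6.91, and 7.27 in *Irf1-/-* HSCs and 0, 0, and 1.08 in WT HSCs, which did not overlap. With these 4 included, the list of other thioesterases held 13 genes, of which 10 were tested, 0 were called by limma, edgeR, or DESeq2, 2 had an unadjusted *P* under 0.05 (beside 16.5% of all tested genes), and their median log2 fold change was 0.03. The most abundant, *Acot7*, *Acot9*, and *Acot11*, had log2 fold changes of −0.10, −0.28, and 0.35.

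The promoters of the thioesterase pair could be compared although their coding sequences are nearly alike. They are shown with that of *Ppargc1a*, as the 250 bases before each RefSeq start (GRCm38.p6). Capitals mark matches to the core of the IRF element, AANNGAAA, on either strand. The *Acot1* window lies at chr12:84009252-84009501 (plus strand), the *Acot2* window at chr12:83987611-83987860 (plus strand), and the *Ppargc1a* window at chr5:51567726-51567975 (minus strand).
Acot1: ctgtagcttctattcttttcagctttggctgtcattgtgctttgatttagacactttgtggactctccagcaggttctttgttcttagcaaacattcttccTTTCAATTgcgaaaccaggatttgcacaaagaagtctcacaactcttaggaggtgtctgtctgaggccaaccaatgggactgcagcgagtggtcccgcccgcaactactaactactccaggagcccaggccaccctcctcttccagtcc
Acot2: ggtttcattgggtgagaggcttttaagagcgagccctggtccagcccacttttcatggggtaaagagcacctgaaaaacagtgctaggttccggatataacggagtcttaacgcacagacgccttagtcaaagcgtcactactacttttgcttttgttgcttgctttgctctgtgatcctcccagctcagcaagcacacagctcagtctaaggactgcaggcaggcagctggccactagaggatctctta
Ppargc1a: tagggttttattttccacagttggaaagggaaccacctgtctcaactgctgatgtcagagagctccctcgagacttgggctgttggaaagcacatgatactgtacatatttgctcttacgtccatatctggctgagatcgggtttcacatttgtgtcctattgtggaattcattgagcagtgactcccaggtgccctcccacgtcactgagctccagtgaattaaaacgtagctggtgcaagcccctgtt
The longest run of bases that the *Acot1* and *Acot2* windows shared was 9, in contrast to their coding sequences. The match in *Acot1* begins 149 bases before the start and reads TTTCAATT, the core on the minus strand. No match was found in the *Acot2* and *Ppargc1a* windows.

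Promoters were listed for 8 of the 9 genes, all but *Ppargc1b*. Both windows listed for *Acox2* lie wholly within *Acox2* transcripts of GENCODE vM1 (250 of 250 bases), and that of *Ppara* shares a run of 83 bases with its transcripts, so these are in part transcribed sequence. The IRF core was present in 2 of these 8, *Acot1* and *Cpt2*, and in 21.3% of all 32851 promoters of this length. The centre of the direct repeat that PPAR binds (GGTCANAGG), the element of estrogen-related receptors (TCAAGGTCA), and the cAMP response element (TGACGTCA) were in 0 of the 8, and in 1.43%, 0.387%, and 1.55% of all promoters. These matches describe letters in a short window and say nothing on whether a factor binds.

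Levels were compared between genes per kilobase of the longest listed transcript (GENCODE vM1). In WT HSCs, *Cpt1a* stood highest at 3240 ± 406 normalized counts per kilobase (SD, n = 3), followed by *Cpt2* (1362 ± 34.1), *Acot1* (339 ± 32.5), *Ppargc1b* (278 ± 38.0), *Acot2* (146 ± 35.9), *Acox2* (42.8 ± 10.1), *Ppargc1a* (34.4 ± 10.6), *Ppard* (17.3 ± 2.70), and *Ppara* (8.71 ± 2.89). Among neighbors in this order, the libraries of *Acox2* and *Ppargc1a* overlapped, and those of the other neighbors did not. With coding length in place of transcript length, *Ppargc1a* (92.9) stood above *Acox2* (60.8) in WT HSCs, still with overlap, and *Ppargc1b* and *Acot2* overlapped as well.

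In *Irf1-/-* HSCs the order by transcript length was the same, from *Cpt1a* (4283 ± 172) to *Ppara* (12.35 ± 3.59). *Acox2* (100.4 ± 19.7) no longer overlapped with *Ppargc1a* (62.8 ± 4.07) on this scale, whereas *Ppargc1b* overlapped with *Acot2*, and *Ppard* with *Ppara*. By coding length in *Irf1-/-* HSCs, *Ppargc1a* (169.5) stood above *Acox2* (142.7) and *Acot2* (297) above *Ppargc1b* (289), in both cases with overlap. In WT HSCs the level of *Cpt1a* was at percentile 90.2 of the 15434 tested genes with a transcript length, and that of *Ppara* at percentile 9.47. *Ppargc1a*, at percentile 25.2, was thus a gene of low abundance in HSCs, and *Ppargc1b* stood at percentile 45.5. Whether strand was used in counting is not given in the sources used here, and in RefSeq the intervals of *Ppargc1b*, *Ppard*, and *Cpt1a* overlap with other genes (*Mir378a* lies within *Ppargc1b*), whose reads could have been counted together with them.

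Genes of the pathway beyond the 9 were examined in 10 lists, with 143 genes of which 134 were tested. In *Irf1-/-* HSCs, 1 was called higher and 0 were called lower by limma, beside 0.96% and 0.954% of all tested genes, and the same numbers were obtained with edgeR and DESeq2. An unadjusted *P* under 0.05 was found for 23, a share close to the 16.5% of all tested genes. The median log2 fold change of the 134 genes was 0.01, and the *Irf1-/-* libraries lay above all WT libraries for 20 and below for 10, beside 10.6% and 9.27% of all tested genes. The called gene was *Pdk4*, a PPAR target whose kinase shuts off pyruvate dehydrogenase so that fatty acids are used in place of glucose. It had normalized counts of 447, 483, and 344 in *Irf1-/-* HSCs and 219.7, 219, and 155 in WT HSCs. All *Irf1-/-* libraries were higher, by 2.15-fold in the mean (log2 fold change 1.10; limma, adjusted *P* = 0.0151). The call of *Pdk4* was lost without *Irf1-/-* replicate 2 (log2 fold change 1.06, limma adjusted *P* = 0.0757), without *Irf1-/-* replicate 3 (1.00, adjusted *P* = 0.0584), and without the trend (adjusted *P* = 0.171), within a range of 4.46e-05 to 0.171 over 16 alternatives.

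*Pdk4* was 1 of 7 tested PPAR targets outside oxidation, whose median log2 fold change was −0.04. The most abundant of them were *Ucp2*, *Plin2*, and *Angptl4*, with log2 fold changes of −0.11, −0.17, and −0.04 (limma, adjusted *P* = 0.597, 0.489, and 0.946). Partners of PGC-1 and PPAR, among them the RXR receptors and the corepressors, had a median of −0.02 over 20 tested genes, from −1.48 (*Esrrg*) to 2.01 (*Rxrg*), with 0 called and 4 with an unadjusted *P* under 0.05. In this list *Lpin1*, which encodes a coactivator of PGC-1α and PPARα that is also an enzyme of lipid synthesis, had normalized counts of 4258, 4830.5, and 4321 in *Irf1-/-* HSCs and 3239, 3219, and 3462 in WT HSCs. The groups did not overlap, and the log2 fold change of 0.43 was below the fold threshold (limma, adjusted *P* = 0.0198); *Lpin1* was singled out after its values were seen. The most abundant partners, *Nrip1*, *Rxrb*, and *Ncor1*, had log2 fold changes of 0.09, 0.05, and −0.12. The other RXR receptors, *Rxra* and *Rxrg*, had 0.32 and 2.01 (limma, adjusted *P* = 0.242 and 0.255). *Rxrg* was near the floor, with normalized counts of 10.7, 19.0, and 24.9 in *Irf1-/-* HSCs and 1.65, 2.25, and 9.68 in WT HSCs. It reached the mean of 10 needed for testing only through the *Irf1-/-* libraries. *Esrrg* was also low, with means of 11.3 in *Irf1-/-* HSCs and 29.7 in WT HSCs.

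Mitochondrial β-oxidation itself, the spiral of dehydrogenases, hydratases, and thiolases, had 19 tested genes, of which 0 were called and 4 had an unadjusted *P* under 0.05 (beside 16.5% of all tested genes), with a median log2 fold change of −0.04. *Etfb*, which carries electrons away from the acyl-CoA dehydrogenases, had 13608, 15105, and 14702 in *Irf1-/-* HSCs and 16378, 19284, and 17183 in WT HSCs. All *Irf1-/-* libraries were lower, but the difference did not pass the test (log2 fold change −0.28; limma, adjusted *P* = 0.117). *Acadvl* and *Acadl*, the dehydrogenases for very long and long chains, had log2 fold changes of −0.06 and 0.05. Other genes of the carnitine shuttle had a median of 0.15 over 5 tested genes, with 0 called, 1 with an unadjusted *P* under 0.05, and log2 fold changes of 0.04, 0.15, and 0.29 for *Crot*, *Slc25a20*, and *Crat*.

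Uptake and activation of fatty acids had a median log2 fold change of 0.01 over 14 tested genes, with 0 called and 4 with an unadjusted *P* under 0.05. Its most abundant genes moved in different directions without passing the test, with log2 fold changes of −0.26 for *Acsl5*, 0.28 for *Slc27a1*, and −0.12 for *Acsl3*. The energy sensors and upstream regulators, among them AMPK subunits and PML, had a median of 0.08 over 15 tested genes, with 0 called and 2 with an unadjusted *P* under 0.05. *Pml* had a log2 fold change of 0.14, *Flcn* of 0.08, and *Prkag2* of 0.18. Fatty acid synthesis, the opposite pathway, had a median of −0.12 over 12 tested genes, with 0 called and 3 with an unadjusted *P* under 0.05 (beside 16.5% of all tested genes), and log2 fold changes of −0.13 for *Acly*, −0.28 for *Scd2*, and −0.18 for *Fasn*. None of these lists held a gene called by limma, edgeR, or DESeq2 with all 6 libraries. The log2 fold change of *Slc27a3*, a fatty acid transporter, was −1.21 (limma, adjusted *P* = 0.320), and it was called lower without *Irf1-/-* replicate 3 (−2.03, adjusted *P* = 0.0327; range over 16 alternatives 0.0327 to 0.704). The fold change was smaller without *Irf1-/-* replicate 2 (−0.79) or 4 (−0.80) and with edgeR or DESeq2 (−0.72 in each). The log2 fold change of *Acacb*, the carboxylase whose product inhibits carnitine palmitoyltransferase 1, was 0.55 (limma, adjusted *P* = 0.123), and it was called higher without WT replicate 4 (0.73, adjusted *P* = 0.0216; range 0.0216 to 0.360). Both are named because of these values.

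The genes whose pattern over the 6 libraries was nearest to that of the called genes were found by the root mean square difference of log2 values, each centred on its own mean. For *Acox2* they included *Scube3* (0.125) and *Veph1* (0.143). For *Acot1* they were *Pnck* (0.0633), *Fam43a* (0.0659), and *Laptm4b* (0.0665). None of these named genes belonged to the lists of the pathway. The centred values keep the genotype difference, so genes with a like fold change are near by construction. The log2 fold changes were 1.32 for *Scube3*, 1.03 for *Veph1*, 0.65 for *Pnck*, 0.64 for *Fam43a*, and 0.75 for *Laptm4b*. Shared regulation was not tested.

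Markers of cell types and of proliferation moved with genotype beside these results. Of the 7 proliferation markers, all were measured, and their summed normalized count was 68177, 72006, and 54408 in *Irf1-/-* HSCs and 95975, 106230, and 74951 in WT HSCs, with *Mcm2* as the most abundant gene and *Mki67* and *Top2a* called lower. The 5 megakaryocyte markers summed to 40363, 24765, and 35754 in *Irf1-/-* HSCs and 47319, 60305, and 45164 in WT HSCs, with *Itga2b* as the most abundant gene and *Gp1bb* and *Pf4* called lower. None of either list was at 0 in all libraries. The 7 erythroid markers summed to 2924, 2216.5, and 2731 in *Irf1-/-* HSCs and 3705, 3828, and 2995 in WT HSCs, with *Epor* the most abundant and *Klf1* called lower. The 4 hemoglobin genes in this list were at exactly 0 in all libraries, and since the handling of reads that match more than 1 gene is not known, no absence is read from these zeros.

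For the multipotent progenitor, dendritic cell, stromal, and endothelial markers, summed counts did not overlap between genotypes and were higher in *Irf1-/-* HSCs. The sums were not tested. They overlapped for the markers of HSCs, B cells, T cells, and neutrophils and monocytes. The 3 multipotent progenitor markers summed to 20379, 26211, and 21245 in *Irf1-/-* HSCs and 19641, 17853, and 20003 in WT HSCs, with *Cd34* the most abundant and *Flt3*, also a dendritic cell marker, called higher. The 5 dendritic cell markers summed to 3661, 4541, and 3583.5 in *Irf1-/-* HSCs and 2753, 1803, and 3111 in WT HSCs, but this sum was mostly *Flt3*, and 3 of the 5 (*Itgax*, *Xcr1*, and *Siglech*) had negative log2 fold changes (−1.31, −0.82, and −0.55), none of them called. The 5 stromal markers, led by *Pdgfrb*, summed to 2209, 1800, and 1789 in *Irf1-/-* HSCs and 1456, 1459, and 1275 in WT HSCs, but this sum was mostly *Pdgfrb* and the genotypes overlapped for the other 4, with *Lepr* negative (log2 fold change −0.62; limma, adjusted *P* = 0.753). The 4 endothelial markers, led by *Pecam1*, summed to 7326, 6942, and 8183 in *Irf1-/-* HSCs and 5321, 5327, and 6132 in WT HSCs, where *Emcn* alone did not overlap. No stromal or endothelial marker was called. The endothelial marker *Emcn*, with a log2 fold change of 0.576 (limma, adjusted *P* = 0.0101), was just under the fold threshold and is named because of these values. Within the 10 HSC markers, *Fgd5* was called higher, and 2 others had an adjusted *P* under 0.05 in limma without passing the fold threshold, *Procr* with a log2 fold change of 0.52 (adjusted *P* = 0.0112) and *Ly6a*, which encodes Sca1 of the sort gate, with −0.43 (adjusted *P* = 0.0245). These 3 are named because of their values. The part of these differences in the values of the 9 genes was not tested, and in bulk RNA fewer cells of a type and less RNA per cell cannot be told apart.

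Adipocytes are part of the bone marrow and express many PPAR targets, so their markers were examined as well, although the HSC gate does not take adipocytes. The 6 adipocyte markers summed to 337, 120.1, and 262 in *Irf1-/-* HSCs and 88.1, 126, and 260.3 in WT HSCs, with *Lep* the most abundant. The adipocyte gene *Adipoq* was at most 7.46 and *Plin1* at most 15.99. The libraries with the highest sums (*Irf1-/-* replicates 2 and 4 and WT replicate 4) were also the highest for *Acot2* and *Ppara*, and they lay apart from the others on the first principal component of all tested genes (32.4% of the variance). The part of this difference between libraries in the values of *Acot2* and *Ppara* was not tested.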

How the data were processed

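Bulk RNA-seq of sorted HSCs was analysed in 3 WT and 3 *Irf1-/-* mice, grouped by their labels. The labels number the libraries of a genotype from 1 to 3 in one place and from 2 to 4 in another; the latter were used. Per the study's methods, the authors amplified cDNA with SMART-Seq v4, built Nextera XT libraries, used Trim Galore for trimming, HISAT2 for alignment (build mm39 in the submitters' processing notes), and Htseq-count for counting. The deposited values are a signal: counts scaled by the authors with DESeq2, using 1 factor for a whole library. The annotation and strand setting are not given in the sources used here. All values (100%, tolerance 0.01) came out as whole reads after division by the smallest step of their library, so reads were recovered. They carry no molecular identifiers.

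limma 3.58.1 in R 4.3.3 (lmFit, eBayes with trend) was fitted on log2(normalized count + 1) to genes with a mean of at least 10, without covariates, and *P* values were adjusted by Benjamini-Hochberg. edgeR 4.0.16 (quasi-likelihood) and DESeq2 1.42.0 on the recovered reads were alternatives, as were the pseudocount, the filter, the trend, quantile normalization, median centring, the fold threshold, a block on the replicate number, and each library left out in turn. The tests were tried on simulated data first. The members and lists were chosen with earlier results of these data known, and lists are described by counts and medians without a test. Named are the 9 genes, *Irf1*, called genes and the 3 most abundant of each list, the 3 nearest genes to each called member, and markers. Some genes under this rule are not reported here. Transcript lengths (GENCODE vM1, matched by symbol and older symbols) covered 88.7% of tested genes and all 9 members. Promoters came from RefSeq. Coding sequences were aligned with Biopython 1.88, and figures were drawn with matplotlib 3.10.9.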

Additional observations from a re-analysis of the deposited data

How the results depend on the processing

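The number of genes called higher in *Irf1-/-* HSCs (167) and lower (166) fell most without the trend in limma's prior variance, to 7 and 33, where 0 of the 9 genes were called. With DESeq2, 299 genes were called higher and 211 lower, and without the fold threshold 301 were higher and 260 lower. Leaving out each library in turn gave between 83 (without *Irf1-/-* replicate 4) and 304 (without WT replicate 4) genes called higher, between 105 (without WT replicate 3) and 265 (without WT replicate 4) called lower, and between 0 and 3 of the 9 genes called higher. Over 16 alternative settings, *Acox2* and *Acot1* were both called in 12, *Ppargc1a* joined them in 4 of these, and neither was called in 4 (without the trend, *Irf1-/-* replicate 4, WT replicate 2, or WT replicate 3). The cause of these shifts was not tested. Leaving out a library left fewer samples, but both counts rose without WT replicate 4. No member was called lower in any of the 16 settings, and no fold change of a member changed sign. For *Ppara*, the filter at a mean of 50 gave no value, and DESeq2 gave a log2 fold change (0.498) but no adjusted *P*.

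With the replicate number as a block, 219 genes were called higher and 196 lower, and 3 of the 9 genes were called higher, with *Ppargc1a* added (limma, adjusted *P* = 0.0313). Whether this number pairs the samples is not known. The correlation of deviations from the group means was −0.094 for replicate 2, 0.246 for replicate 3, and 0.147 for replicate 4. *Irf1-/-* replicates 3 and 4 correlated best with the WT library of the same number, and *Irf1-/-* replicate 2 with WT replicate 4 (0.251). With 3 libraries per genotype, these values cannot decide whether the samples are paired. *Ppara* and *Ppard* rest on at most 63 reads per library.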
